A study of Rattus norvegicus with 29 samples.

Results

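Transcripts of 5 dual-specificity MAP kinase phosphatases were followed in alcohol-preferring (P) rats given continuous ethanol, limited ethanol or water only. The 8 Affymetrix probe sets whose only gene symbol was Dusp1, Dusp2, Dusp4, Dusp5 or Dusp6 were taken, each kept apart, out of 31042 probe sets that were not array controls. Dusp1 had 2 probe sets, Dusp6 had 3 and the other genes had 1 each. P rats are a line bred for high voluntary ethanol intake, and the tissue, the shell of the nucleus accumbens, is a ventral striatal region of the reward circuit. The 29 arrays comprised 10 of rats exposed to continuous ethanol, 10 of rats with access to limited ethanol and 9 of rats with no ethanol, which are labelled water only. All rats were of the P line, so no comparison with another line was possible. The series design names 10 samples per group, and the remaining water sample was not analysed here. The ethanol dose, the length of exposure, the time of sampling, the age and the sex are not in the labels used here. The labels do not say whether each array held tissue of a separate animal, so the p-values measure only the spread between these samples.

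MAP kinases (ERK, JNK and p38) are activated by phosphorylation of a threonine and a tyrosine in the same loop, and dual-specificity phosphatases remove both phosphates. Many of these phosphatases are themselves induced by the pathway that they switch off and so form a negative feedback loop. In striatal neurons, ERK is activated by dopamine and glutamate input, and Dusp1 is known as a rapidly induced gene.

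The promoters of the inducible members are given first, because their start regions differ in motifs that activity-responsive genes are known to carry. RefSeq promoter sequences of rat assembly GRCr8, running from 250 bases before to 50 bases after the start of each gene, were matched for 4 of the 5 genes, and Dusp4 was the other one. All 4 lie on the plus strand. The Dusp1 window is chr10:17184603-17184902, the Dusp5 window is chr1:262543524-262543823 and the Dusp6 window is chr7:35979354-35979653. Capitals mark matches, on either strand, to the cAMP response element (CRE, TGACGTCA), the CRE core (TGACG, which the full CRE contains on each strand), AP-1 (TGANTCA), the CArG box, the EGR motif (GCGNGGGCG) or the TATA box (TATAAA).
Dusp1: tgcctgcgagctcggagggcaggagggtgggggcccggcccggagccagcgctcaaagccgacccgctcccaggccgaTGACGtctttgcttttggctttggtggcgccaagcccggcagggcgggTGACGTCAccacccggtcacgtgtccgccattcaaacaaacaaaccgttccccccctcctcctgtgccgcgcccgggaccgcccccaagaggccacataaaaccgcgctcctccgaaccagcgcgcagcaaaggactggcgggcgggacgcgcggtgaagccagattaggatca
Dusp5: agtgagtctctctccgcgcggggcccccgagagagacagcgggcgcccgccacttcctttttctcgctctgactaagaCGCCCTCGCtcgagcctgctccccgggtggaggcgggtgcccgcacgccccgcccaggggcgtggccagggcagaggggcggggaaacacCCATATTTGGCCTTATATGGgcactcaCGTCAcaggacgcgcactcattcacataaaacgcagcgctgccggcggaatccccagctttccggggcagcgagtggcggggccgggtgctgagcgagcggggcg
Dusp6: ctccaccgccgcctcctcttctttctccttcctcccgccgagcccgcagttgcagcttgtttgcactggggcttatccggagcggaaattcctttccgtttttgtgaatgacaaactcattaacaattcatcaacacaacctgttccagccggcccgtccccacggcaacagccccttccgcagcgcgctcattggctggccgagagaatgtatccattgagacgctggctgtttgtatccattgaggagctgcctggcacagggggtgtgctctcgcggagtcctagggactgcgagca
The Dusp1 window held 1 full CRE at positions -124 to -117, a motif found in 1.83% of 33469 promoter windows of the same length. It held 3 matches to the core in all, of which 2 lie within that CRE, and the core was found in 21.2% of windows. The Dusp5 window held 2 adjacent CArG boxes at -82 to -73 and -72 to -63, a motif found in 1.64% of windows. It also held 1 EGR match (4.98% of windows) and 1 CRE core, whereas the Dusp6 window held none of the letters searched. The Dusp2 window (chr3:135009386-135009685) held 1 EGR match at -112 to -104 and 1 CRE core at -9 to -5. AP-1 and TATA motifs, found in 7.33% and 14.2% of windows, had no match in these 4 windows. A match describes the letters in the window and is neither a binding site nor a cause of a difference.

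Array medians (log2) were 8.17 to 8.21, and pairs of arrays correlated between 0.971 and 0.997 over the probe sets tested. No pair of arrays held identical values. A second principal component, with 16.5% of the variance, set 5 arrays apart on its negative side (limited replicates 6 and 7 and water replicates 2, 5 and 6), at -22.2 to -15.6. On its positive side continuous replicate 4 lay as far out, at 20.2, and water replicate 9 at 10.9. All 13 medium spiny neuron markers on the array were bright enough to be tested, as were 8 of 8 markers of cortical glutamatergic neurons. The same held for 9 of 9 astrocyte and 10 of 10 microglia markers, so passing the filter does not single out striatal tissue. Values are log2 RMA expression values, in which a difference of 1 is a doubling, and they were compared only within a probe set. A change is called where the p of limma, adjusted by the Benjamini-Hochberg method over 21729 probe sets, is under 0.05. Of the 8 probe sets, 7 entered the tests, because Dusp4 lay in the dimmest 30 percent of probe sets. In bulk tissue, fewer cells of a type and less RNA per cell cannot be told apart.

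Dusp1 transcript was higher after continuous ethanol than with water on both of its probe sets, by 1.42-fold on each. No other member passed the test in that comparison, or in either other pair of groups. The Dusp6 probe sets lay 0.17 to 0.23 log2 units higher after continuous ethanol without passing the test. Dusp2 and Dusp5 did not pass either, and the dim Dusp4 was not tested. Of the 7 probe sets tested, 2 were higher after continuous ethanol, 0 were lower and 5 did not pass, against a background in which 0.152% of all probe sets tested were called, 0.0874% higher and 0.0644% lower. At an unadjusted p under 0.05, limma and the exact permutation test each counted 5 of the 7, against 16.1% of all probe sets tested by limma. They were the Dusp1 and Dusp6 probe sets, which measure 2 genes repeatedly, so they do not count as 5 separate members. In 0 of the 8 probe sets were the continuous ethanol and water groups free of overlap, which 0.0322% of all probe sets tested were, 0.0138% with continuous ethanol higher.

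Dusp1 encodes a nuclear phosphatase that acts on p38, JNK and ERK and is an immediate early gene. On probe set 1368146_at its lowest, median and highest values were 10.99, 11.39 and 11.61 in continuous ethanol arrays. They were 10.76, 11.18 and 11.37 in limited ethanol arrays and 10.64, 10.85 and 11.14 in water arrays. The groups overlapped, but 9 of 10 continuous ethanol arrays lay above every water array, and all 10 lay above the water mean. The means were 11.35 ± 0.18 after continuous ethanol (SD, n = 10), 11.12 ± 0.21 with limited ethanol (SD, n = 10) and 10.84 ± 0.16 with water (SD, n = 9). The difference between continuous ethanol and water was 0.50 ± 0.08 (SE) with a 95% interval of 0.34 to 0.67, and passed the limma test (adjusted p = 0.00245).

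The other Dusp1 probe set, 1368147_at, gave a difference of the same size with a wider spread. Its lowest, median and highest values were 8.09, 8.74 and 9.10 in continuous ethanol arrays, 8.35, 8.59 and 8.95 in limited ethanol arrays and 7.93, 8.20 and 8.57 in water arrays. The groups overlapped, since only 7 of 10 continuous ethanol arrays exceeded every water array and 1 lay below the water mean. The mean was 8.72 ± 0.31 after continuous ethanol and 8.22 ± 0.18 with water (SD, n = 10 and 9). The difference of 0.50 ± 0.10 (SE; 95% interval 0.30 to 0.71) passed the limma test with an adjusted p of 0.0257. It no longer passed under 5 of 15 other settings, the weakest being a covariate for the SD of each array (adjusted p = 0.174), nor without any 1 of continuous replicates 4, 8 and 9 or water replicates 5 and 6 (adjusted p up to 0.0679).

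**Figure D1:**
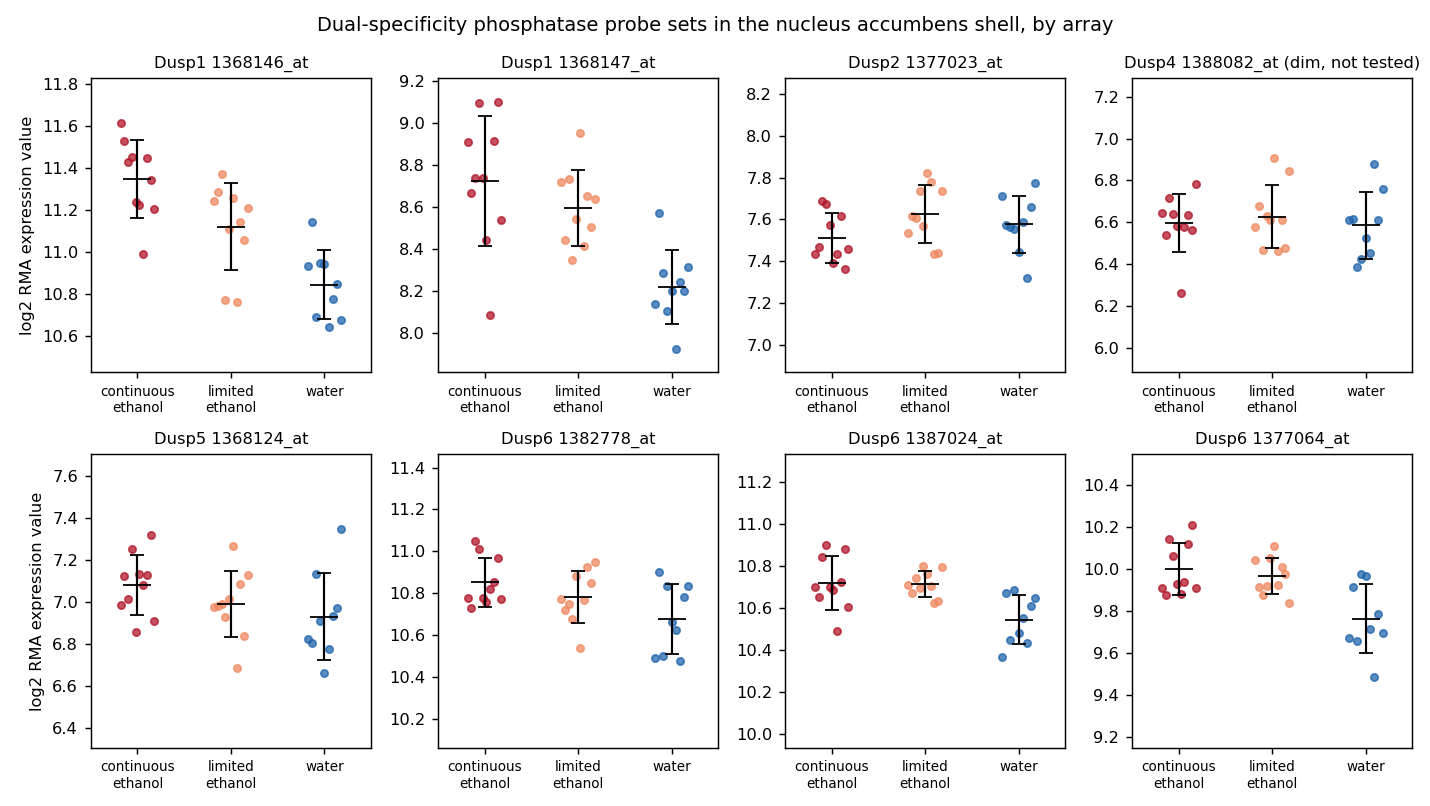
Log2 RMA expression value of each of the 8 probe sets (vertical axes) in every array, by group; points are arrays and bars are the mean and SD. Continuous ethanol arrays of Dusp1 1368146_at lie between 10.99 and 11.61 and water arrays between 10.64 and 11.14, while the 3 groups of Dusp4 overlap, with all values between 6.26 and 6.91.

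Dusp2 and Dusp4 encode further nuclear phosphatases, of which Dusp2 did not pass and Dusp4 was too dim to be tested. Dusp2, best known as an inducible phosphatase of activated lymphocytes, had lowest, median and highest values of 7.36, 7.46 and 7.69 in continuous ethanol arrays, 7.43, 7.61 and 7.82 in limited ethanol arrays and 7.32, 7.57 and 7.77 in water arrays. The 3 groups covered almost the same range. The difference between continuous ethanol and water was -0.07 ± 0.06 (SE; adjusted p = 0.589 by limma). Dusp4 had a mean of 6.60 ± 0.14 in continuous ethanol arrays, 6.63 ± 0.15 in limited ethanol arrays and 6.59 ± 0.16 in water arrays (SD). Its median was 6.61 in each group, its values spanned 6.26 to 6.91 over all arrays, and the groups overlapped. An exact permutation test of continuous ethanol against water gave an unadjusted p of 0.882.

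Dusp5 encodes a nuclear phosphatase selective for ERK. Its lowest, median and highest values were 6.86, 7.10 and 7.32 in continuous ethanol arrays, 6.69, 6.99 and 7.26 in limited ethanol arrays and 6.66, 6.91 and 7.35 in water arrays. The order of the medians was continuous, limited and water, but the single highest value was a water array. The difference between continuous ethanol and water was 0.15 ± 0.08 (SE) and did not pass the limma test (adjusted p = 0.318).

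Dusp6 encodes a cytoplasmic phosphatase selective for ERK, and its 3 probe sets gave a similar pattern. On 1377064_at the lowest, median and highest values were 9.88, 9.93 and 10.21 in continuous ethanol arrays, 9.84, 9.95 and 10.11 in limited ethanol arrays and 9.49, 9.71 and 9.98 in water arrays. All 10 continuous and all 10 limited ethanol arrays lay above the water mean, yet the groups overlapped, with 4 of 10 continuous ethanol arrays above every water array. The difference between continuous ethanol and water was 0.23 ± 0.06 (SE; adjusted p = 0.0910 by limma).

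On Dusp6 probe set 1387024_at the lowest, median and highest values were 10.49, 10.70 and 10.90 in continuous ethanol arrays, 10.62, 10.71 and 10.80 in limited ethanol arrays and 10.36, 10.55 and 10.68 in water arrays. Both ethanol groups had nearly equal medians above that of the water group. The difference between continuous ethanol and water was 0.17 ± 0.05 (SE; adjusted p = 0.136 by limma). On 1382778_at the means were 10.85 ± 0.12 in continuous ethanol arrays, 10.78 ± 0.12 in limited ethanol arrays and 10.68 ± 0.17 in water arrays (SD), and the difference between continuous ethanol and water was 0.17 ± 0.06 (SE; adjusted p = 0.188 by limma). Without water replicate 4, the difference on 1377064_at was 0.26 and passed (adjusted p = 0.0332 by limma). In that fit 94 of all probe sets tested passed, beside 33 with every array, and the reason was not tested. In the other 28 fits without 1 array, 1377064_at did not pass.

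**Figure D2:**
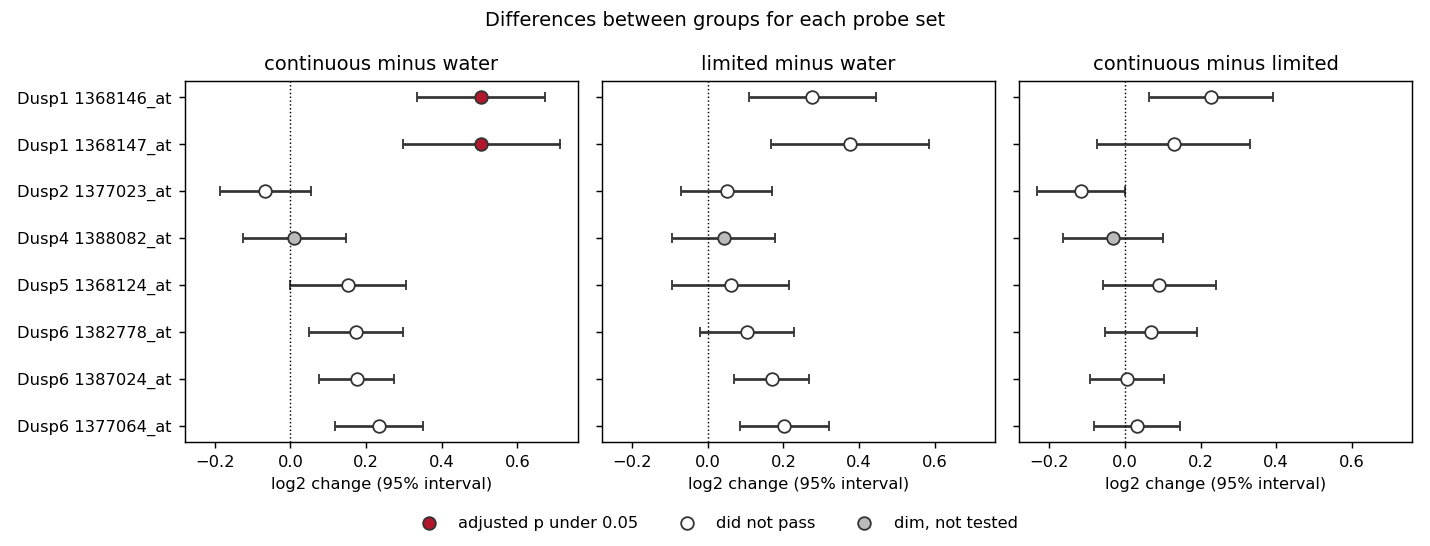
Log2 change of each probe set (horizontal axes, with its 95% interval) in 3 comparisons; filled red points passed the test, white points did not and grey marks the untested Dusp4. Both Dusp1 probe sets stand at 0.50 for continuous ethanol minus water, and no point is filled in either comparison with the limited ethanol group.

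Limited access addressed whether a restricted ethanol schedule altered the same transcripts, and it was set against the same water arrays, so the values below are not independent of those above. None of the 7 probe sets tested passed (limma), and 0% of all probe sets tested did. At an unadjusted p under 0.05, limma and the exact permutation test each counted 4 of the 7, against 4.44% of all probe sets tested by limma. They were both Dusp1 probe sets and Dusp6 1377064_at and 1387024_at, so they are not separate genes. Dusp1 lay 0.28 ± 0.08 (SE; adjusted p = 0.971) higher in limited ethanol than in water arrays on 1368146_at, with 8 of 10 arrays above the water mean. On 1368147_at it lay 0.38 ± 0.10 higher (SE; adjusted p = 0.928 by limma), with 10 of 10 arrays above the water mean. For Dusp6 the differences were 0.20, 0.17 and 0.10 on 1377064_at, 1387024_at and 1382778_at, with adjusted p-values by limma of 0.928, 0.971 and 0.972. Dusp2, Dusp4 and Dusp5 differed by 0.05, 0.04 and 0.06.

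The ethanol schedules were also compared with each other. None of the 7 probe sets passed (limma), against 0.00460% of all probe sets tested. At an unadjusted p under 0.05, limma and the exact permutation test each counted 1, Dusp1 1368146_at, against 9.31% of all probe sets tested by limma. That probe set was 0.23 ± 0.08 (SE) higher after continuous than with limited ethanol, with a 95% interval of 0.06 to 0.39 (adjusted p = 0.526 by limma). The other Dusp1 probe set gave 0.13 with an interval of -0.07 to 0.33. For Dusp6 1387024_at the difference was 0.01 with an interval of -0.09 to 0.10. On Dusp1 1368146_at the order of the means was continuous, limited and water, in which only the outer groups differed past the threshold.

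Pooling averaged the 2 schedules, and whether ethanol intake itself gave the pooled differences was not tested. Limited ethanol alone against water passed for 0% of all probe sets tested. When the mean of both ethanol groups was set against the water group, Dusp1 was higher on both probe sets, by 0.39 ± 0.07 (SE; adjusted p = 0.0128 by limma, 18 of 20 ethanol arrays above the water mean) and 0.44 ± 0.09 (SE; adjusted p = 0.0335 by limma, 19 of 20 arrays). These were 2 of 7 probe sets tested, against 0.0874% of all probe sets tested, 0.0506% higher and 0.0368% lower. At an unadjusted p under 0.05, limma counted 5 of 7, against 10.2% of all probe sets tested. These again were the probe sets of Dusp1 and Dusp6 alone. Dusp6 1377064_at lay above the water mean in 20 of 20 ethanol arrays, with a difference of 0.22 that did not pass (adjusted p = 0.103 by limma). A test over the 3 groups passed for Dusp1 1368146_at (adjusted p = 0.0116 by limma) and for 0.0828% of all probe sets tested, and did not pass for 1368147_at (adjusted p = 0.0763 by limma).

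The calls of Dusp1 were recomputed with other settings and without each array. For continuous ethanol against water, Dusp1 1368146_at passed under all 16 other settings, with differences of 0.45 to 0.55, and without any 1 of the 29 arrays, with differences of 0.47 to 0.54. For the pooled ethanol groups it did not pass with a covariate for the SD of the array (adjusted p = 0.0503), for the leptomeningeal marker level (adjusted p = 0.0529) or for the astrocyte marker level (adjusted p = 0.106). The pooled call of 1368147_at was lost under 6 of 14 other settings (adjusted p up to 0.189) and in 15 of 29 fits without 1 array, among them 8 of the 9 that left out a water array (adjusted p up to 0.116, without water replicate 6).

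**Figure D3:**
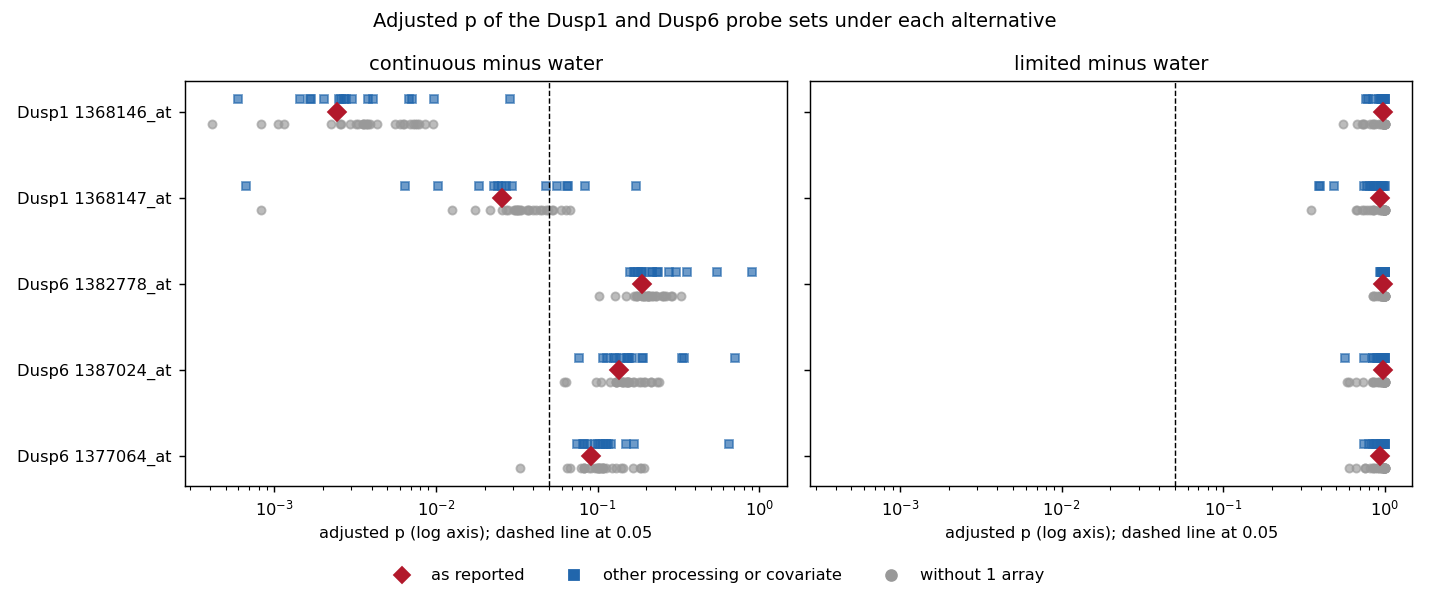
Adjusted p (log axis, dashed line at 0.05) of the Dusp1 and Dusp6 probe sets under each alternative. The panels are continuous ethanol against water and limited ethanol against water. Diamonds are the reported fits, squares other settings and grey points fits without 1 array. Every point of Dusp1 1368146_at lies below 0.05 for continuous ethanol minus water, up to 0.0286, whereas points of 1368147_at lie on both sides.

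Cell type markers and array measures that moved beside these differences were measured in the same arrays. The mean level of 14 endothelial and mural markers averaged -0.05 ± 0.10 (SD) in continuous ethanol arrays and 0.06 ± 0.13 (SD) in water arrays, as log2 deviations from the mean of all arrays, with an exact permutation p of 0.0301 and an adjusted p of 0.316 over 21 marker tests. The level of 9 astrocyte markers averaged -0.03 ± 0.04 (SD) in limited ethanol arrays and 0.04 ± 0.07 (SD) in water arrays (exact permutation p = 0.0150, adjusted p = 0.314). All 15 leptomeningeal markers tested had a lower mean in continuous ethanol and in limited ethanol than in water arrays, none past the threshold by limma. The mean of their deviations ranged from -1.49 to 0.62 in continuous ethanol arrays and from -0.24 to 0.94 in water arrays. The SD over probe sets was 2.18 in continuous ethanol arrays and 2.16 in water arrays (exact permutation p = 0.0157). The 3′ minus 5′ signal of the control probe sets of beta-actin and Gapdh (log2) was 0.57 ± 0.06 in continuous and 0.50 ± 0.05 in limited ethanol arrays (SD; exact permutation p = 0.0205). With each of these 5 measures in turn as a covariate, Dusp1 1368146_at differed between continuous ethanol and water by 0.45 to 0.55 and passed. Between continuous and limited ethanol it differed by 0.23 with the 3′ minus 5′ covariate (adjusted p = 0.986 by limma). Of 13 medium spiny neuron markers, only 1 had a higher mean in continuous ethanol than in water arrays. Their median difference was -0.09, and none passed by limma. The mean level of these markers differed by -0.08 (exact permutation p = 0.181, adjusted p = 0.678), and no fit used it as a covariate.

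The rest of the MAP kinase pathway was read from lists of genes, each gene represented by its brightest tested probe set. Upstream of the phosphatases, 0 of 10 MAP kinases, 0 of 12 MAP kinase kinases and Raf kinases and 0 of 15 genes of Ras activation and scaffolding passed in continuous ethanol against water. Their median differences were -0.01, -0.01 and -0.02, beside 0.01 for all 11328 genes tested. Since only 0.152% of all probe sets tested passed in this comparison, counts of 0 do not set lists of this size apart. Mapk4, an atypical MAP kinase, differed by -0.09 ± 0.04 (SE; adjusted p = 0.269 by limma), and Grb2, the adaptor between receptors and the Ras exchange factor, by 0.10 ± 0.03 (SE; adjusted p = 0.145 by limma).

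The lists of other phosphatases and of feedback inhibitors also held no gene that passed, beside 0.152% of all probe sets tested. Of 14 other genes of the dual-specificity phosphatase family, taken whether or not they act on MAP kinases, 0 passed, with a median difference of 0.02. The smallest p was that of Dusp18 (0.12 ± 0.07 SE, adjusted p = 0.410 by limma). Of 5 Sprouty and Spred feedback inhibitors 0 passed, Spry2 differing by 0.14 ± 0.05 (SE; adjusted p = 0.202 by limma). Of 3 tyrosine phosphatases of MAP kinases 0 passed. They include Ptpn5, the striatum-enriched STEP, which lay below the water mean in 10 of 10 continuous ethanol arrays, at -0.11 ± 0.04 (SE; adjusted p = 0.191 by limma). Among 10 kinases activated by MAP kinases, 0 passed.

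In a list of genes linked to MAP kinase signalling, most of them transcription factors, 4 of 23 were higher after continuous ethanol, 0 were lower and 19 did not pass. Not all genes of the list are induced by the pathway. The 4 genes were Fos at 0.79 ± 0.12, the nuclear receptor Nr4a1 at 0.70 ± 0.09, Ier2 at 0.41 ± 0.07 and Junb at 0.34 ± 0.06 (SE). Their adjusted p-values by limma were 0.00120, 1.05e-04, 0.00821 and 0.00506. Over the probe sets of the 23 genes, 5 of 42 were higher, against 0.0874% of all probe sets tested. The list was chosen with earlier results of these data known, so these counts are a description and not independent support. With limited ethanol against water 0 of the 23 passed.

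**Figure D4:**
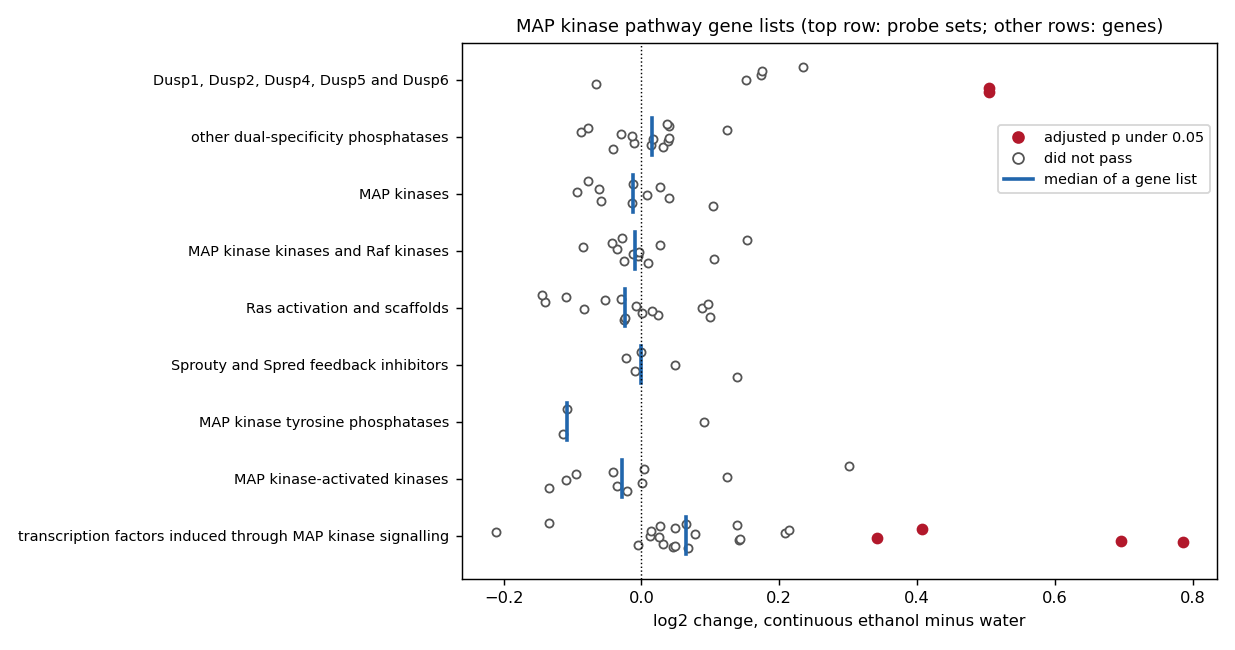
Log2 change in continuous ethanol minus water (horizontal axis) of the phosphatase probe sets (top line) and of each tested gene in the pathway lists; filled red points passed the test and vertical marks are list medians. The filled points are the Dusp1 probe sets and 4 genes of the transcription factor list, which reach 0.79.

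Probe sets of the same gene varied together within groups, whereas no pair of different phosphatases passed that test. Deviations of the 29 arrays from their group means correlated between the Dusp1 probe sets with a Pearson r of 0.65 (permutation adjusted p = 0.00182) and a Spearman rho of 0.56 (permutation adjusted p = 0.0133), among 14 pairs tested, and r was 0.54 without the 2 arrays farthest from the median. The Dusp6 pairs gave r of 0.66, 0.52 and 0.55 (permutation adjusted p = 0.0021, 0.0299 and 0.0263), with rho of 0.68, 0.56 and 0.57 (permutation adjusted p = 0.00448, 0.0133 and 0.0133). Without the 2 farthest arrays these r were 0.73, 0.64 and 0.58. Without the 5 arrays set apart above, r was 0.58 for the Dusp1 pair and 0.74, 0.69 and 0.61 for the Dusp6 pairs. Within groups the Dusp6 agreement was uneven: r was 0.73 to 0.86 in continuous ethanol arrays, -0.30 to 0.02 in limited ethanol arrays and 0.58 to 0.95 in water arrays. None of the 10 pairs of different genes passed, with r from -0.05 to 0.28 and permutation adjusted p from 0.416 to 0.988.

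**Figure D5:**
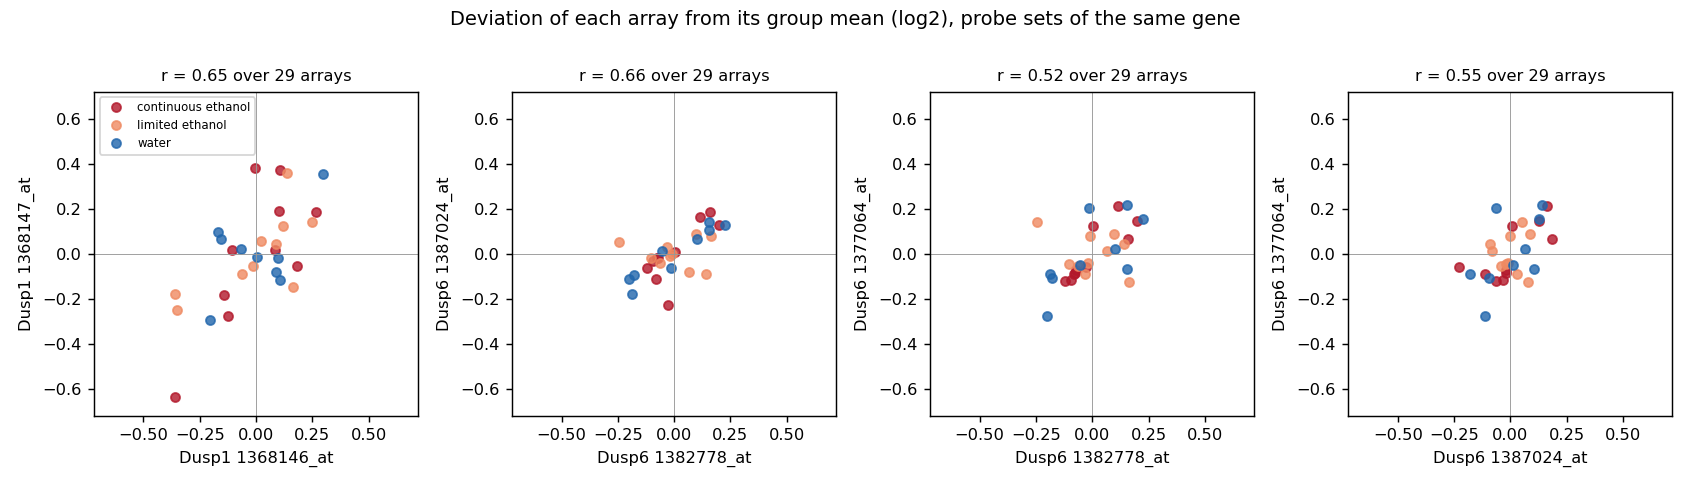
Deviation of each array from its group mean (log2) for 1 probe set against another of the same gene, coloured by group, with Pearson r over 29 arrays. The Dusp1 pair gives 0.65, and the Dusp6 pairs give 0.52 to 0.66 although limited ethanol arrays show no common slope.

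Dusp2 varied with the level of cortical neuron markers in the samples. Its deviations correlated with the level of 8 cortical glutamatergic markers, with r = 0.66 (permutation adjusted p = 0.0091 over 35 relations), rho = 0.60 (permutation adjusted p = 0.0399) and r = 0.67 without the 2 farthest arrays and 0.69 without the 5 arrays set apart. No other of the 35 relations passed. As a description over 29 arrays, the genes whose deviations were most like those of Dusp2 were Mpped1, Crym, Camkv, Kcnj4 and Mus81, with r of 0.70 to 0.74. For Dusp1 1368146_at they were Virma, Scn2a, Nr4a2, Tef and Chn1 (0.59 to 0.70), and for Dusp5 they were Arhgap39, Oxsm, Naa16, Ier5 and Polr1h (0.71 to 0.76). For Dusp6 1382778_at they were Prcc, Robo2, Klhl23, Tafa2 and Klf10 (0.75 to 0.84), and for the dim Dusp4 Cyp4a3, Slc25a29, Hmga1, Wdr95 and Gckr (0.69 to 0.74). These are the largest of 11327 correlations for each tested member.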

How the data were processed

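Total RNA of 29 nucleus accumbens shell samples was hybridised to Affymetrix rat arrays, per the labels' protocols. What the authors deposited is log2 expression made with RMA (background correction, quantile normalization and a single summary value for each probe set), as the submitters' processing notes record. The range of the values showed that they are on a log2 scale. The software version and array batches are not given in the sources used here. Since RMA equalises arrays, a shift shared by all transcripts is removed.

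Probe sets were named through the platform table (20826 with 1 symbol, 436 with several), and 57 controls were left out. The dimmest 30 percent by mean (at or below 6.86) were filtered, leaving 21729. One limma 3.58.1 model (R 4.3.3, statmod 1.5.0) with group as the only factor was fitted to all arrays, with two-sided tests and Benjamini-Hochberg adjustment at 0.05. Exact permutation tests were two-sided, and correlations used 100000 permutations (Python 3.11.15, numpy 2.4.6). The fit was tested on simulated data. The number of arrays limits the precision.

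Members and gene lists were chosen with earlier results of these data known. In each list, the genes past the threshold in any comparison could be named. Where none passed, those of smallest p in continuous ethanol against water could be named, whatever their direction. The 5 genes of highest correlation were named for the brightest probe set of each member. Alternatives covered normalization, filters, array weights, covariates, left-out arrays and a replicate block; covariates for the astrocyte and cortical marker levels were added after seeing the data.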

Additional observations from a re-analysis of the deposited data

Results flagged for a closer look

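Dusp4 1388082_at in continuous replicate 6 stood apart from its group. Its value of 6.26 was the lowest of the 10 continuous ethanol arrays, the nearest other was 6.54, and the gap was 0.534 of the range of the group. This was 1 of 24 checks (8 probe sets in 3 groups), and chance gives about 1 in 20. The probe set lies below the brightness filter and entered no call.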

How the results depend on the processing

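Of the 7 tested probe sets, 2 passed for continuous ethanol against water. Only 1 passed with the replicate block, with a covariate for the SD of the array or for the astrocyte marker level (added after seeing the data), with 1 probe set per gene, with only the groups compared, and without the 5 arrays apart on the second principal component. Leaving out 1 array gave 1 to 3. For the pooled ethanol groups (2 as reported), 1 passed with the replicate block, the cortical covariate (added after seeing the data), 1 probe set per gene or without those 5 arrays, and 0 with the SD, leptomeningeal or astrocyte covariate. Leaving out 1 array gave 1 to 2. In the test over 3 groups (1 as reported), 2 passed with array weights or with the covariate for 3′ minus 5′ signal or for endothelial markers, and 0 with the SD covariate; leaving out 1 array gave 1 to 2. The causes were not tested, except that 1 probe set per gene leaves 1 for Dusp1. No member passed in the other comparisons under the alternatives run.

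Signs turned only for differences near 0. Dusp6 1387024_at between the schedules gave -0.010 after repeated quantile normalization and -0.0080 with the SD covariate, and -0.015 to 0.031 without 1 array. Dusp2 in limited ethanol against water gave -0.0045 with array weights and -0.014 without the 5 arrays, and for the pooled groups 0.0048 with the SD covariate and -0.040 to 0.016 without 1 array. Dusp5 in limited ethanol against water gave -0.027 without the 5 arrays. Over all probe sets, 33 passed for continuous ethanol against water, 11 to 48 under other settings and 18 to 94 without 1 array (18 without water replicate 5, 59 without water 8, 66 without limited 6 and 94 without water 4). For the pooled groups 19 passed, 9 to 24 under other settings and 13 to 34 without 1 array (34 without limited 6).

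Whether replicate numbers pair the samples could not be decided. Same-numbered arrays correlated over 0.1 in 5 of 9, 5 of 9 and 2 of 10 pairs, but arrays of different numbers were not compared. With the replicate block, Dusp1 1368147_at gave 0.51 (adjusted p = 0.0643 by limma) for continuous ethanol against water. Fits with only the groups compared were not run for the pooled comparison and the test over 3 groups. Dim probe sets, such as that of Dusp4, limit what could be seen.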

Other observations

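Single arrays held the extreme values of several members. Limited replicate 6 was the highest limited ethanol array on 5 of 8 probe sets and the lowest on 1, Dusp6 1382778_at. Continuous replicate 9 was the highest continuous ethanol array on 3 probe sets, and continuous replicate 7 was the lowest on 3, which were both Dusp1 probe sets and Dusp6 1387024_at. Among water arrays, replicate 2 was the highest on 3 probe sets and replicate 7 the lowest on 3.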
